A study of Mus musculus with 24 samples.

Results

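The genes described here are the 4 FGF receptor genes (Fgfr1, Fgfr2, Fgfr3 and Fgfr4) and 6 genes that are commonly read as a response to FGF signaling (Spry1, Spry2, Spry4, Dusp6, Etv4 and Etv5). They were taken as a named set and found by gene symbol, after each identifier of the count table had been mapped to its symbol. All 10 were found among the 56748 genes of the table, and all 10 passed the filter on low counts in every comparison. The rule that gave them names the genes and uses no measured value, but the set was chosen with earlier results of these data known.

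Fibroblast growth factors (FGFs) bind receptor tyrosine kinases at the cell surface, and the bound receptor passes the signal through adaptor proteins and the RAS, RAF, MEK and ERK kinases to transcription factors in the nucleus. Etv4 and Etv5 encode ETS-family transcription factors that act downstream of FGF, whereas the Sprouty genes and Dusp6, a phosphatase of ERK, encode inhibitors that the pathway itself switches on, so their transcripts are used as a readout of the pathway. In the tooth germ, FGFs pass between the epithelium and the mesenchyme and are known for their part in growth and in the formation of the crown.

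RNA was sequenced from the mesenchyme of mandibular first molar tooth germs of ICR mouse embryos, in 24 libraries that form 8 groups of 3. The undivided mesenchyme was taken at the cap stage, embryonic day 13 (Cap-W), and at the bell stage, embryonic day 15 (Bell-W). Tooth germs of both stages were also cut into a lingual part, on the side of the tongue, and a buccal part, on the side of the cheek (Cap-L, Cap-B, Bell-L and Bell-B). Parts cut at the cap stage were, in addition, kept for 2 days in vitro (Cap-L+2D and Cap-B+2D). All groups came from the same outbred strain with no genetic change or added agent, and in all of them the mesenchyme was freed from the epithelium with dispase II before RNA extraction. Neither the labels nor the methods say which libraries share animals, and the methods speak both of triplicates and of a pair of biological replicates, so p-values measure the spread between these samples, which may be technical.

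The deposited values were read-pair counts per gene. Counts per library totalled 20581720 to 39266497, and 3 counts, taken here as the floor, were worth 0.0764 to 0.146 CPM, that is, counts per 1000000 counts of a library. Levels are given as CPM normalized with edgeR's TMM method over the 24 libraries, and levels of different genes are compared only after division by exon length (RPKM). A gene was called when its p, from the quasi-likelihood test of edgeR and adjusted by the Benjamini-Hochberg method, was under 0.05 and its log2 fold change was over 0.5 in either direction. The 8 markers of dental mesenchyme were above the floor in every group and summed to between 3150 and 4930 CPM. Libraries of the cut parts lay closer to each other than those of the undivided mesenchyme, where the chi-square between replicates was 7.97 to 164 per gene, against 1.32 to 9.91 in the other groups. The share of Rn18s-rs5, a ribosomal RNA gene, was 5.39% in Cap-W replicate 1 and 1.3% and 1.43% in Bell-W replicates 1 and 2. The other undivided libraries held 0.223% to 0.304%, and the libraries of the parts 0.0761% to 0.298%. In Bell-W replicate 3 the summed level of 8 epithelial markers was 1840 CPM, with 453 CPM as the lowest value of that group.

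In GRCm39, as given by the exon coordinates of the count table, Fgfr1 lies at chr8:26003670-26065734, Fgfr2 at chr7:129764181-132725079, Fgfr3 at chr5:33879018-33894412 and Fgfr4 at chr13:55300453-55316572. Spry1 lies at chr3:37694096-37698747 and Spry2 at chr14:106129381-106134253. Dusp6 lies at chr10:99099093-99103351, Etv4 at chr11:101660568-101676197 and Etv5 at chr16:22200059-22258469. Counting ignored strand and left out read pairs that overlapped several genes. Of the exon bases, 24.4% were shared with another annotated gene for Spry1 (Gm42922), 13.9% for Fgfr3 (G630022F23Rik), 3.04% for Fgfr2 (Ctbp2) and 1.66% for Fgfr1 (Gm16159), so the levels of these genes are uncertain to that extent, while the other 6 genes shared none.

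The inhibitor genes Spry1, Spry2 and Dusp6 were called higher after culture on both sides, as described further on. The 250 bases before their start sites are shown for that reason. Fgfr4 was called higher on both sides too, and its matches are given below without its sequence. The sequences are RefSeq promoters of GRCm38.p6, read on the strand of the gene and placed in GRCm39 by exact match, at chr3:37693846-37694095 (plus strand) for Spry1, chr14:106134254-106134503 (minus strand) for Spry2 and chr10:99098843-99099092 (plus strand) for Dusp6. Capitals mark the letters GGGCGG, the GC box.
Spry1: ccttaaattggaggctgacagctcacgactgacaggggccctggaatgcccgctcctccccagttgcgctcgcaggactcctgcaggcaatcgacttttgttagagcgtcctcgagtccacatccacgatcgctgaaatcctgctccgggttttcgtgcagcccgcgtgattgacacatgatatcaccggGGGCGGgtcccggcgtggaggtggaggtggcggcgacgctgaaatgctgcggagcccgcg
Spry2: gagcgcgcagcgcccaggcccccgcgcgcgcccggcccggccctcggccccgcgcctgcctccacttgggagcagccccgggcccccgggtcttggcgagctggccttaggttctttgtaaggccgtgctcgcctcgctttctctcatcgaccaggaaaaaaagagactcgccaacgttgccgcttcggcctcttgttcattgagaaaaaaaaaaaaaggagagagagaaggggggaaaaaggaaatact
Dusp6: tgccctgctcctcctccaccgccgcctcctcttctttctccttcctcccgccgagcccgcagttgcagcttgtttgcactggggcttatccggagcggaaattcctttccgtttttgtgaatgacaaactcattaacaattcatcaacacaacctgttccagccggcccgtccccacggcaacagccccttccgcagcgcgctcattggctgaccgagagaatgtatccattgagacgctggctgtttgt
The 3 sequences are rich in G and C, at 62.4%, 62.4% and 56.4%. They were searched on both strands for CCGGAA (ETS), TGANTCA (AP-1), TGACGTCA (CRE), CAGCTG (E-box) and GGGCGG, none of which contains another. Apart from the 1 GC box of Spry1, none of these letters was found in the 3 windows. CCGGAA is a longer form of GGAA, the core that ETS factors bind. GGAA alone was not searched for, and it is present in each of the 3 sequences. Over 32851 promoter windows of the same length, CCGGAA was present in 12.0%, TGANTCA in 6.75%, TGACGTCA in 1.55%, CAGCTG in 13.0% and GGGCGG in 32.7%. The promoter table held 7 of the 10 genes in 9 entries. Among them the Fgfr4 window held 1 CCGGAA, 178 bases before the start site, and 2 GC boxes. These matches describe letters only, and nothing follows from them about the binding of a factor.

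Among the receptors, Fgfr1 was the most abundant per exon length in every group. It ranged from 42.3 ± 5.37 RPKM (SD, n = 3) in Cap-W to 99.2 ± 4.65 RPKM in Cap-B+2D and made up 62.1% to 77.5% of the summed RPKM of the 4 receptors, as means of the groups. Fgfr2 was next in 6 of the 8 groups, with 7.87 ± 1.27 RPKM in Cap-W and 25 ± 0.846 RPKM in Cap-L+2D as its lowest and highest means. Fgfr3 ran from 3.94 ± 1.9 to 8.5 ± 0.432 RPKM. In these 6 groups Fgfr4 was the lowest receptor and took 0.752% to 3.02% of the sum.

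The order of the receptors per exon length was different in Bell-B and Cap-B+2D. Fgfr4 took 16.2% ± 0.671 of the sum in Bell-B and 20.3% ± 0.345 in Cap-B+2D. In Cap-B+2D the 3 libraries held 29.2 to 30.8 RPKM of Fgfr4 against 12.7 to 12.8 RPKM of Fgfr2, so that Fgfr4 was the second receptor there and the ranges did not overlap. In Bell-B the libraries held 16.2 to 16.9 RPKM of Fgfr4 and 15.4 to 16 RPKM of Fgfr2, adjoining ranges that did not overlap. This order rests on the exon lengths of the count table, 10328 bases for Fgfr2 and 3542 bases for Fgfr4. In CPM, Fgfr2 was above Fgfr4, at 161 and 58.9 CPM in Bell-B and at 131 and 107 CPM in Cap-B+2D.

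**Figure D1:**
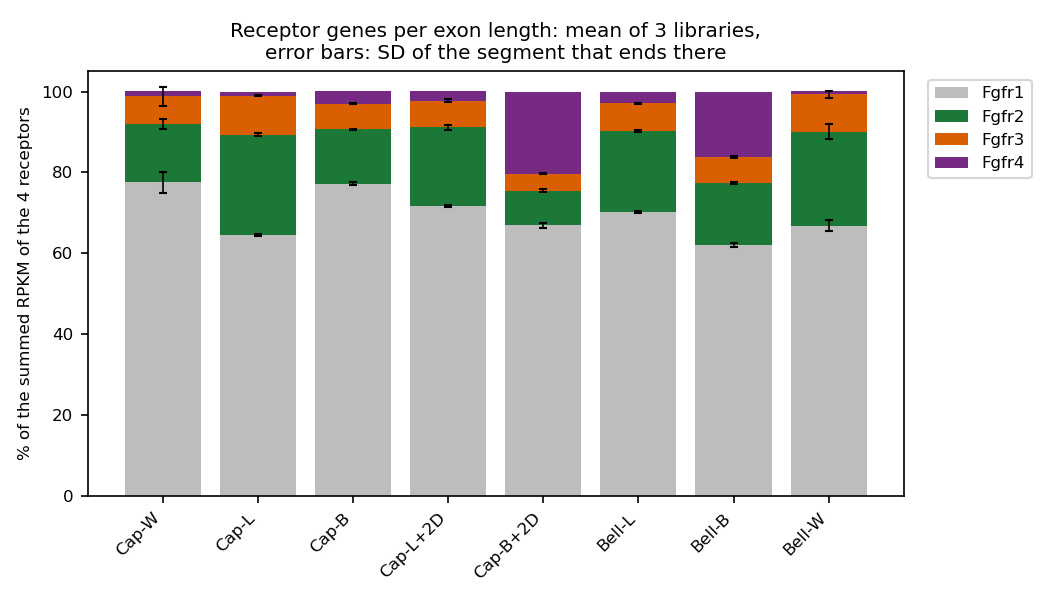
Share of each FGF receptor gene in the summed RPKM of the 4 receptors (percent, vertical axis) in the 8 groups, as means of 3 libraries; error bars are the SD of the Fgfr1, Fgfr2 or Fgfr3 segment that ends there, and none is drawn for Fgfr4. Fgfr1 is the tallest segment in every group, and Fgfr4 reaches 16.2% in Bell-B and 20.3% in Cap-B+2D.

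**Figure D2:**
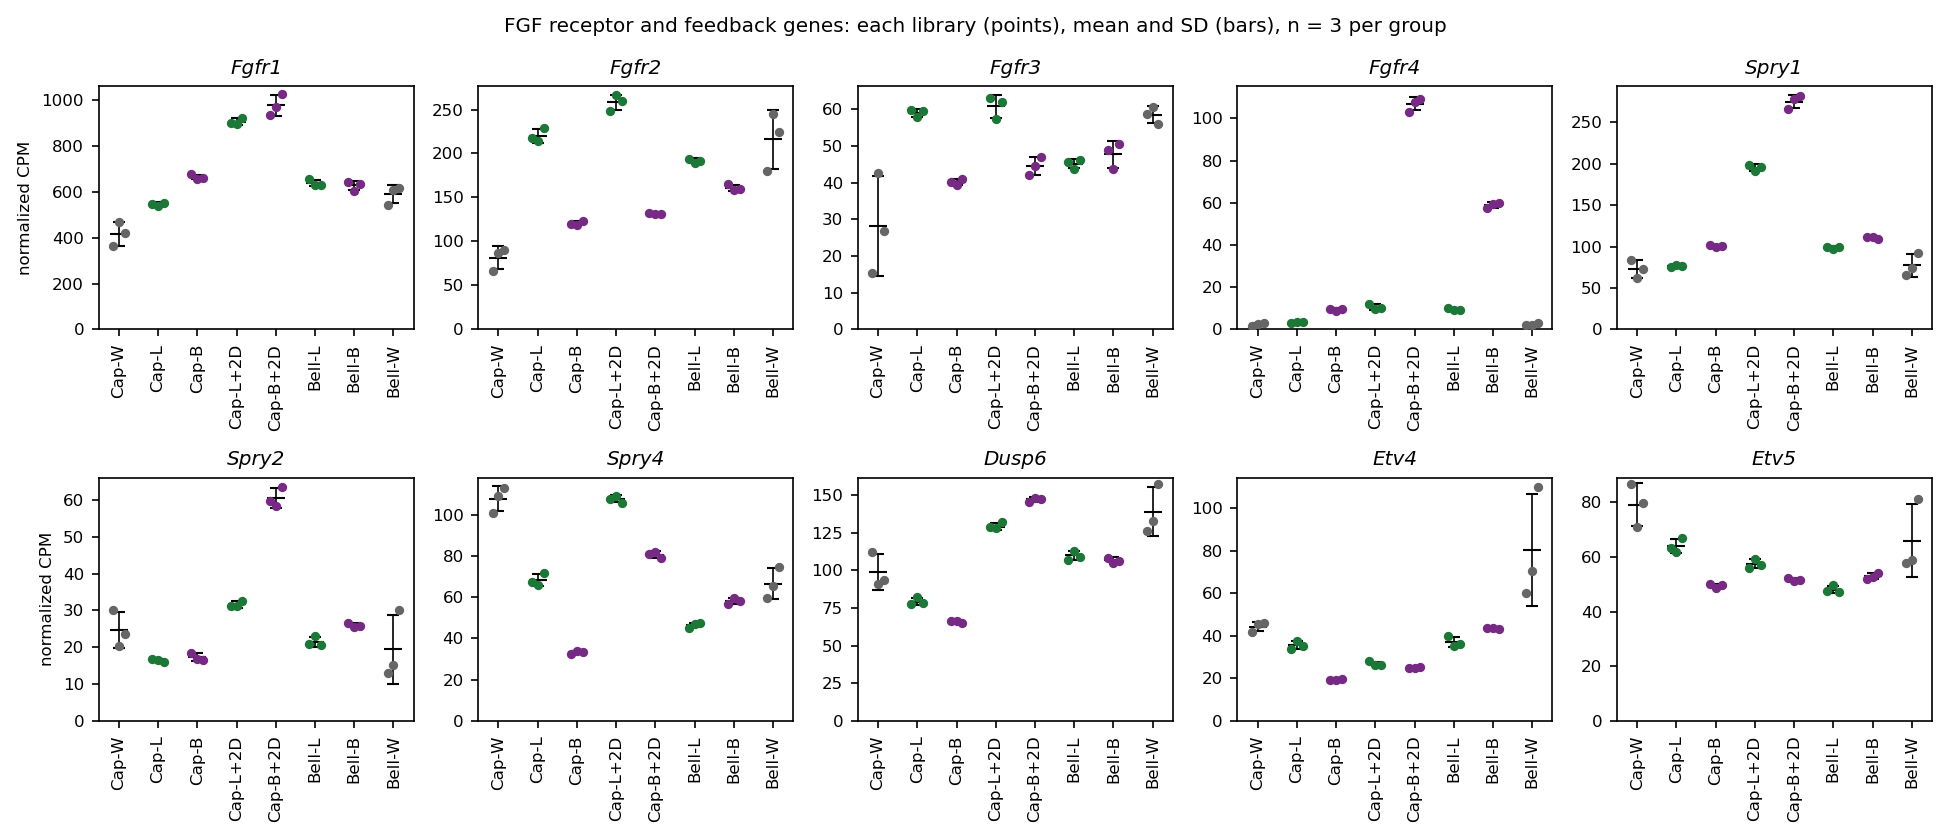
Normalized CPM (vertical axes, from 0) of the 10 genes in every library of the 8 groups; points are libraries, bars the mean and SD of 3 libraries, with lingual groups in green, buccal groups in purple and undivided mesenchyme in grey. Spry1, Spry2 and Fgfr1 are highest in the cultured groups, Spry4 is high in Cap-W and Cap-L+2D, and Bell-W replicate 3 stands above the other Bell-W libraries in Spry2, Etv4 and Etv5.

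Cap-L and Cap-B were compared to ask how the sides of the tooth germ differ. Of the 10 genes, 5 were called at this stage, 4 of them lower and 1 higher in Cap-B, where 17.5% of the 20653 genes tested were called in either direction, 7.1% lower and 10.4% higher. The 4 lower genes were the receptor genes Fgfr2 and Fgfr3, the inhibitor gene Spry4 and the transcription factor gene Etv4. The gene called higher was Fgfr4. The median log2 fold change of the 10 genes was -0.29, against -0.01 over all genes tested.

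Fgfr2, whose protein has isoforms for epithelial and for mesenchymal cells, was at 218, 214 and 229 CPM in Cap-L and at 120, 119 and 123 CPM in Cap-B. The groups did not overlap, and Fgfr2 fell by 0.84 on the log2 scale in Cap-B (SE 0.0448, adjusted p = 2.42e-11). Fgfr3, known as a restraint on the growth of cartilage, was at 59.8, 57.8 and 59.6 CPM in Cap-L and 40.1, 39.4 and 41 CPM in Cap-B, a log2 fold change of -0.53 (SE 0.0479, adjusted p = 4.52e-08) that lay just beyond the limit of 0.5. Fgfr1, the broadly expressed receptor, went the other way without being called, at 0.31 (SE 0.0422).

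Spry4 showed the largest fall of the 10 genes on the buccal side. It was at 67.5, 65.9 and 71.8 CPM in Cap-L and at 32.4, 34 and 33.6 CPM in Cap-B (log2 fold change -1.01, SE 0.0522, adjusted p = 1.65e-11). Etv4 was at 34, 37.6 and 35.3 CPM in Cap-L and 19, 19 and 19.5 CPM in Cap-B (-0.87, SE 0.0583, adjusted p = 6.82e-10). In both genes every Cap-L library was above every Cap-B library. Etv5 at -0.35 (SE 0.0486) and Dusp6 at -0.24 (SE 0.0444) were also lower in Cap-B in every library but were within the limit on the fold. Spry1, at 0.43 (SE 0.0427), was higher in Cap-B in every library, and Spry2, at 0.09 (SE 0.069), overlapped between the sides. In all, 9 of the 10 genes did not overlap between the sides, where 52.4% of the genes tested did not.

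The markers of other cell types also differed between these groups. The 8 epithelial markers summed to 439 to 484 CPM in Cap-L and 313 to 327 CPM in Cap-B, and 7 of the 8 were called lower in Cap-B, with a median log2 fold change of -0.8. The osteoblast markers summed to 961 to 981 CPM in Cap-L and 444 to 460 CPM in Cap-B, and the cartilage markers to 260 to 277 and 125 to 129 CPM, with 4 of 4 tested called lower in each list. The osteoblast list includes Runx2, which the paper shows in the dental mesenchyme itself at this stage. Of the 6 glial markers, 5 were called higher and 1 lower. Their part in the lower levels of Fgfr2, Fgfr3, Spry4 and Etv4 was not tested, and in bulk samples fewer cells of a type and less RNA per cell cannot be told apart.

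Fgfr4 was at 2.9, 3.53 and 3.25 CPM in Cap-L and at 9.84, 8.62 and 9.61 CPM in Cap-B (log2 fold change 1.55, SE 0.107, adjusted p = 1.1e-09). FGFR4 is the receptor known from muscle precursor cells. All 8 skeletal muscle markers (Pax7, Myf5, Myod1, Myog, Actc1, Acta1, Ttn and Chrng) were called higher in Cap-B too, with a median log2 fold change of 4.03 and a summed level of 185 to 195 CPM against 12.6 to 14 CPM in Cap-L. The part of these cells in the level of Fgfr4 was not tested.

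Of the wider pathway, 22 ligand genes, 13 genes of receptor partners, 20 genes of the signal relay, 15 other feedback and target genes and 10 immediate early genes were listed. At the cap stage, 4 of the 15 ligand genes tested were called higher and 5 lower in Cap-B. The largest differences were Fgf9 (0.679 CPM in Cap-L and 2.47 CPM in Cap-B, log2 fold change 1.87), an epithelial ligand in the tooth, and Fgf20 (3.71 and 0.477 CPM, -2.94), another signal of the tooth epithelium. Among the other feedback and target genes, 3 were called higher and 3 lower of 13 tested, led by Etv1 (7.91 and 21.8 CPM, 1.49), an ETS factor related to Etv4 and Etv5, and by Myc (85.4 and 23.5 CPM, -1.84). Of the 20 relay genes, only the adaptor gene Gab1 was called, at -0.61, and of the 12 receptor partners tested, Flrt1 was called higher at 0.61 and 2 were called lower, with Kl at -1.35 but under 1 CPM in both groups. Jun, at -0.68, was the 1 of the 10 immediate early genes that was called.

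At the bell stage, Fgfr4 was the 1 gene of the 10 that was called between the sides, where 12.9% of 21181 genes were called, 6% higher and 6.88% lower. It was at 10.2, 9.04 and 9.27 CPM in Bell-L and at 57.3, 59.4 and 60 CPM in Bell-B (log2 fold change 2.63, SE 0.0563, adjusted p = 2.32e-33). The skeletal muscle markers were at 98.6 to 106 CPM in Bell-L and 746 to 755 CPM in Bell-B, with all 8 called higher, and their part in the difference was not tested. Fgfr4 was at the same level in Bell-L as in Cap-B to within the spread of the libraries, at 9.5 ± 0.611 and 9.36 ± 0.649 CPM.

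The other 9 genes differed little between the sides at the bell stage. Spry4 was at 45.3, 46.9 and 47.5 CPM in Bell-L and at 56.9, 59.6 and 58.4 CPM in Bell-B (log2 fold change 0.32, SE 0.0406, adjusted p = 1.19e-08), now higher on the buccal side. Etv4 was at 39.8, 35.3 and 36.2 CPM in Bell-L and at 43.7, 43.5 and 43.3 CPM in Bell-B (0.23, SE 0.0469, adjusted p = 8.8e-05). The libraries did not overlap in either gene, but both differences were within the limit on the fold. Fgfr2 remained lower on the buccal side, at -0.25 (SE 0.0314), and Etv5, lower there at the cap stage, was higher at 0.14 (SE 0.0411). Fgfr1 at -0.02, Dusp6 at -0.04 and Fgfr3 at 0.08 overlapped between the sides, with 95% intervals of -0.08 to 0.04, -0.11 to 0.03 and -0.01 to 0.17. Over the 10 genes, 7 did not overlap between the sides, beside 45.5% of all genes tested.

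In the wider pathway at the bell stage, 4 ligand genes were called higher and 3 lower in Bell-B of 17 tested. Fgf21 was at 0.151 and 0.481 CPM in Bell-L and Bell-B, near the floor, and Fgf14 fell by 1.72 (12.6 and 3.81 CPM). Etv1 (0.88) again led the 3 feedback and target genes called higher, and Dusp14 (-0.88) led the 2 called lower. Among the receptor partners 3 were called lower and none higher of 11 tested, led by Gpc3 (968 and 603 CPM, -0.68). None of the 20 relay genes was called by edgeR, and of the immediate early genes 2 of 10 were called lower, led by Dusp1 at -0.73.

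After 2 days of culture, 3 of the 10 genes were called between the sides, where 25.1% of 21195 genes were called, 12.5% in each direction. Fgfr2 was again lower in the buccal part, at 248, 266 and 260 CPM in Cap-L+2D and 132, 131 and 131 CPM in Cap-B+2D (log2 fold change -0.98, SE 0.0377, adjusted p = 2.27e-17). Spry2 was at 31.2, 31.1 and 32.7 CPM in Cap-L+2D and at 59.7, 58.4 and 63.5 CPM in Cap-B+2D (0.93, SE 0.0484, adjusted p = 1.29e-14), a difference that it did not show in the freshly isolated parts of the cap stage. Fgfr4 was at 12.1, 9.51 and 10.3 CPM in Cap-L+2D and at 103, 108 and 109 CPM in Cap-B+2D (3.33, SE 0.0598, adjusted p = 3.1e-24). The skeletal muscle markers summed to 234 to 250 CPM and 2860 to 3020 CPM in these groups, with all 8 called higher. Other markers were lower in the buccal part, as Fgfr2 was: all 5 osteoblast markers (2130 to 2160 CPM in Cap-L+2D and 462 to 478 CPM in Cap-B+2D), 6 of 8 epithelial markers (306 to 337 and 86.9 to 87.5 CPM) and 5 of 6 endothelial markers (390 to 393 and 160 to 166 CPM) were called lower. Of the epithelial markers, 1 was called higher. The part of all these markers in the differences was not tested.

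Spry1 (0.49, SE 0.0371) and Fgfr3 (-0.46, SE 0.0498) were just within the limit on the fold after culture. Spry4 was still lower in the buccal part, at -0.42 (SE 0.0392), and Etv4, at -0.11 (SE 0.0537, adjusted p = 0.0762), no longer passed the test. Dusp6 at 0.17 (SE 0.037) and Fgfr1 at 0.1 (SE 0.0375) were higher and Etv5 at -0.16 (SE 0.0433) lower on the buccal side. All 10 genes were apart between the sides, in a comparison where 59.1% of all genes tested were. Without Cap-L+2D replicate 1 or Cap-B+2D replicate 1, Spry1 passed the limit, at 0.501 and 0.515.

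Ligand genes were called higher in 8 and lower in 4 of 18 tested after culture. Fgf3, a ligand made by the dental mesenchyme, was at 6.16 CPM in Cap-L+2D and 0.329 CPM in Cap-B+2D (-4.17). Fgf6, a ligand known from muscle, was at 1.29 CPM in Cap-B+2D and under the floor in Cap-L+2D. Of 14 other feedback and target genes, 3 were called higher, led by Etv1 (1.76), and 4 lower, led by Dusp14 (-1.1). None of the receptor partners was called higher by edgeR and 4 of 13 were called lower, led by Fgfbp1 (1.99 and 0.115 CPM, -4.09). Map2k1 (0.78) was called higher and Gab1 (-0.53) and Mapk3 lower among the relay genes. Of the 10 immediate early genes, 7 were called lower in Cap-B+2D, led by Dusp1 (-1.46), which encodes another phosphatase of MAP kinases.

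**Figure D3:**
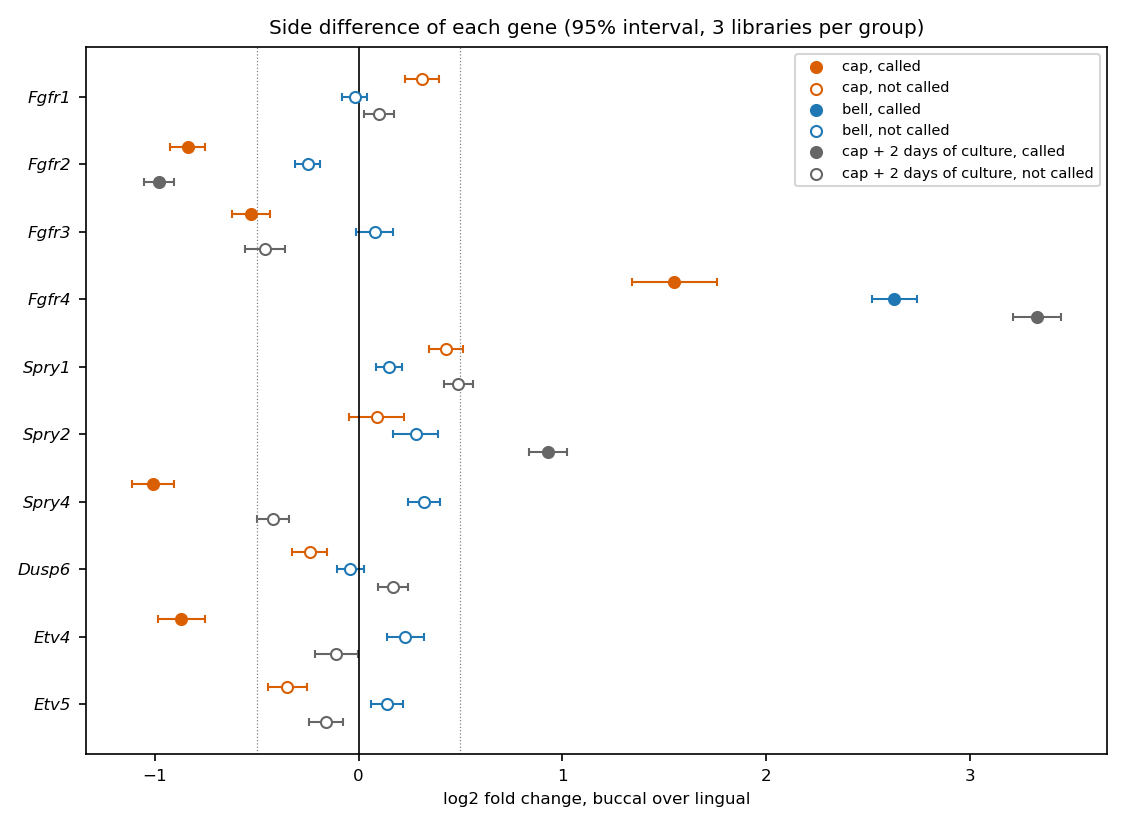
Log2 fold change of the buccal over the lingual part (horizontal axis) for the 10 genes at the cap stage, the bell stage and after 2 days of culture, with approximate 95% intervals from 3 libraries per group. Filled points were called, and dotted lines mark 0.5 in either direction. Spry4 lies at -1.01 at the cap stage and at 0.32 at the bell stage, and Fgfr4 lies to the right in all comparisons.

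The side difference itself was then compared between stages in an interaction test over 12 libraries, counted at an adjusted p under 0.05 with no limit on the fold. It changed in 9 of the 10 genes, 7 upward and 2 downward, where 32.5% of 21931 genes were called, 14.5% upward and 18% downward. The largest were Spry4, whose buccal over lingual difference rose by 1.33 on the log2 scale from cap to bell (SE 0.0648, adjusted p = 2.7e-16), and Etv4, with 1.1 (SE 0.0765, adjusted p = 1.11e-12). Fgfr4 followed with 1.08, Fgfr3 with 0.6, Fgfr2 with 0.59, Etv5 with 0.48 and Dusp6 with 0.2. Fgfr1 (-0.33) and Spry1 (-0.28) changed downward, and Spry2 did not pass the test (0.18, adjusted p = 0.122). When all 24 libraries shared 1 fit, which gives the undivided libraries a say in the spread, 5 genes passed (Fgfr2, Fgfr4, Spry4, Etv4 and Etv5), and the number of all genes called fell from 7137 to 2581. Without Cap-B replicate 1, Spry2 passed as well (0.243, adjusted p = 0.0488).

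Culture changed the side difference in 7 of the 10 genes, 6 upward and 1 downward, where 35.5% of 22098 genes were called, 16% upward and 19.5% downward. Fgfr4 rose by 1.78 (SE 0.132, adjusted p = 3.05e-12), Spry2 by 0.83 (SE 0.0833, adjusted p = 2.05e-09), Etv4 by 0.76 (SE 0.0798, adjusted p = 5.44e-09) and Spry4 by 0.58 (SE 0.0632, adjusted p = 9.07e-09). Dusp6 followed with 0.41 and Etv5 with 0.18, and Fgfr1 changed by -0.21. Spry1 (0.06) and Fgfr3 (0.07) did not pass, and Fgfr2 (-0.14, adjusted p = 0.0515) lay near the threshold. Etv5 lost its call (adjusted p = 0.0501 to 0.0693) without Cap-L replicate 3, Cap-B replicate 2, Cap-L+2D replicate 1 or Cap-L+2D replicate 3, and Fgfr2 gained one without Cap-L replicate 3 (adjusted p = 0.0235) or Cap-L+2D replicate 1 (adjusted p = 0.0346), with a replicate block (adjusted p = 0.0473) and with at least 10 counts in every library (adjusted p = 0.0456). Fgfr1 and Etv5 were not called with all 24 libraries in 1 fit, nor was Etv5 with no filter on low counts (adjusted p = 0.0535). Both interactions rest on the same 6 libraries of the cap stage.

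In the wider pathway, the side difference changed between the stages in 5 ligand genes upward, led by Fgf3 (2.6), and in 4 downward, led by Fgf9 (-1.08), of 17 tested. Among the feedback and target genes, 5 changed upward, led by Myc (1.44), and 3 downward, led by Il17rd (-0.63), of 13 tested. With culture, 4 of 14 of these genes changed upward, again led by Myc (0.95), and 4 downward, led by Il17rd (-0.8). None of the immediate early genes changed upward with culture in the edgeR fit, and 8 of 10 changed downward, led by Fosb (-1.52). The relay genes changed by small amounts, from -0.21 (Araf) to 0.22 (Map2k2) among the 8 called between the stages and from -0.37 (Mapk3) to 0.49 (Map2k1) among the 7 called with culture.

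The stages were compared within each side to ask which side changed. In the lingual part, 2 genes were called between cap and bell, Fgfr4 upward and Spry4 downward, where 20% of 21425 genes were called, 14.2% upward and 5.78% downward. Spry4 fell from 67.5, 65.9 and 71.8 CPM in Cap-L to 45.3, 46.9 and 47.5 CPM in Bell-L, a log2 fold change of -0.54 (SE 0.047, adjusted p = 4.91e-10) just beyond the limit. Fgfr4 rose from 3.23 ± 0.319 to 9.5 ± 0.611 CPM (1.55, SE 0.111, adjusted p = 1.4e-11), beside a rise of the muscle markers from 12.6 to 14 CPM to 98.6 to 106 CPM.

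Etv4 did not pass the test on the lingual side, at 0.06 (SE 0.0568, 95% interval -0.05 to 0.17). Dusp6 was at 0.48 (SE 0.0431), Spry2 at 0.4 and Spry1 at 0.39, while Etv5 was at -0.4 and Fgfr3 at -0.38, all within the limit on the fold. Without Cap-L replicate 2, Dusp6 passed the limit at 0.501. Of the 10 genes, 9 did not overlap between the stages on this side, beside 55.9% of all genes tested.

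In the buccal part, 5 genes were called between cap and bell, all upward, where 18.7% of 21992 genes were called in either direction, 12% upward and 6.73% downward. Etv4 rose from 19, 19 and 19.5 CPM in Cap-B to 43.7, 43.5 and 43.3 CPM in Bell-B (log2 fold change 1.17, SE 0.0498, adjusted p = 1.33e-19). Spry4 rose from 32.4, 34 and 33.6 CPM to 56.9, 59.6 and 58.4 CPM (0.8, SE 0.0432, adjusted p = 1.05e-16). Dusp6 rose from 66.4, 66.3 and 65 CPM to 108, 105 and 106 CPM (0.68, SE 0.0356, adjusted p = 3.33e-17). The libraries of the stages were apart in each of these 3 genes and in all 10 on this side, beside 55.4% of all genes tested.

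Spry2 also rose, from 17.3 ± 1.11 CPM in Cap-B to 26 ± 0.611 CPM in Bell-B (0.59, SE 0.0588, adjusted p = 4.12e-10). Fgfr4 rose from 9.36 ± 0.649 to 58.9 ± 1.42 CPM (2.65, SE 0.0563, adjusted p = 1.12e-27), beside muscle markers at 185 to 195 CPM and 746 to 755 CPM. Fgfr2 was at 0.41 and Fgfr3 at 0.24, and Spry1, Etv5 and Fgfr1 lay between -0.09 and 0.12. The epithelial markers also stood higher at the bell stage, at 524 to 539 CPM in Bell-B against 313 to 327 CPM in Cap-B, and at 718 to 750 CPM in Bell-L against 439 to 484 CPM in Cap-L. Their part in these changes was not tested. The median log2 fold change of the 10 genes was 0.5 on the buccal side and 0.15 on the lingual side, against 0 over all genes tested in either.

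Among the ligand genes, 4 were called higher and 3 lower of 17 tested on the lingual side and 9 were called higher and 1 lower of 19 tested on the buccal side. Fgf3 rose from 1.59 CPM in Cap-B to 13.8 CPM in Bell-B (3.1), and Fgf18 fell there from 38.3 to 26.4 CPM (-0.55). On the lingual side, Fgf20 fell from 3.71 to 0.435 CPM (-3.06), and Fgf4, a ligand of the enamel knot, was at 1.06 CPM in Bell-L and under the floor in Cap-L. Of the other feedback and target genes, 2 of 14 were called higher in the buccal part, led by Phlda1 (0.65), and 2 of 14 lower in the lingual part, led by Myc (-0.91). Immediate early genes were called higher in 6 of 10 in the lingual part, led by Dusp1 (1.35), and in 5 of 10 in the buccal part, led by Zfp36 (1.16). In the relay list Gab1 (-0.58) was the 1 gene called in the lingual part, and none of the 20 was called by edgeR in the buccal part. The receptor partners held Fgfbp1 (0.89) and Kl (-0.99) in the lingual part and Fgfbp3 (0.53) in the buccal part.

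The change over 2 days of culture was compared with the freshly isolated part of the same side. Of the 10 genes, 6 were called on the lingual side and 6 on the buccal side, all upward, where 35.4% of 21425 and 34.5% of 21992 genes were called in either direction, 19.6% and 17.9% upward and 15.9% and 16.6% downward. On each side the called genes were Fgfr1, Fgfr4, Spry1, Spry2, Spry4 and Dusp6. Neither Etv4 nor Etv5 was among them. The cap libraries of these comparisons are those of the stage comparisons above.

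All 4 inhibitor genes rose on both sides. Spry1 rose from 74.7, 78 and 76.1 CPM in Cap-L to 199, 191 and 196 CPM in Cap-L+2D (log2 fold change 1.36, SE 0.0418, adjusted p = 2.04e-19). In the buccal part it rose from 102, 99.6 and 101 CPM to 266, 278 and 282 CPM (1.43, SE 0.0336, adjusted p = 3.36e-27); the changes on the sides differed by 0.06, with a 95% interval of -0.05 to 0.17.

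Spry2 rose from 16.4 ± 0.515 to 31.7 ± 0.893 CPM in the lingual part (0.95, SE 0.0609, adjusted p = 5.85e-13) and from 17.3 ± 1.11 to 60.5 ± 2.68 CPM in the buccal part (1.79, SE 0.0529, adjusted p = 1.87e-24). Spry4 rose from 68.4 ± 3.06 to 108 ± 1.79 CPM (0.66, SE 0.0445, adjusted p = 1.66e-12) and from 33.3 ± 0.823 to 80.7 ± 1.6 CPM (1.25, SE 0.0417, adjusted p = 5.42e-23). Dusp6 rose from 77.6, 82 and 78 CPM to 129, 128 and 132 CPM in the lingual part (0.72, SE 0.0428, adjusted p = 1.66e-13) and from 66.4, 66.3 and 65 CPM to 145, 148 and 147 CPM in the buccal part (1.14, SE 0.0348, adjusted p = 5.75e-24). In these 3 genes the rise was larger on the buccal side by the interaction test given above.

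Neither ETS factor gene was called after culture. Etv4 was at 34, 37.6 and 35.3 CPM in Cap-L and at 28, 26.5 and 26.5 CPM in Cap-L+2D (-0.4, SE 0.0583, adjusted p = 1.52e-06), lower in every library but within the limit. In the buccal part it was at 19, 19 and 19.5 CPM and then at 24.7, 24.9 and 25.4 CPM (0.37, SE 0.0528, adjusted p = 3.05e-07), higher in every library. Etv5 was at -0.15 (SE 0.0467) in the lingual part and at 0.05 (SE 0.0406, 95% interval -0.03 to 0.13) in the buccal part.

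Among the receptor genes, Fgfr1 rose from 547 ± 7.28 to 907 ± 15.7 CPM in the lingual part (0.74, SE 0.0408, adjusted p = 3.52e-14) and from 666 ± 9.92 to 979 ± 46 CPM in the buccal part (0.54, SE 0.0338, adjusted p = 1.69e-15). Fgfr2 was at 0.23 and 0.1 and Fgfr3 at 0.05 and 0.13, all within the limit. Fgfr4 rose from 3.23 ± 0.319 to 10.6 ± 1.3 CPM (1.71, SE 0.109, adjusted p = 5.51e-13) and from 9.36 ± 0.649 to 107 ± 2.94 CPM (3.49, SE 0.0529, adjusted p = 1.38e-32), which was the largest change of the 10 genes in these comparisons. Between cap and culture, 9 genes were apart on the lingual side and 10 on the buccal side, beside 67.5% and 69% of all genes tested.

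The make-up of the libraries changed with culture as well. The immediate early genes summed to 3900 to 4050 CPM in Cap-L and 9720 to 9940 CPM in Cap-L+2D, and to 3910 to 4030 CPM in Cap-B and 6150 to 6540 CPM in Cap-B+2D, with 10 and 6 of 10 called higher. Erythroid markers summed to 1490 to 1830 CPM in Cap-L and 16.6 to 20.2 CPM in Cap-L+2D, and to 1750 to 1810 CPM in Cap-B and 21.8 to 25.4 CPM in Cap-B+2D. Epithelial markers summed to 306 to 337 CPM in Cap-L+2D and to 86.9 to 87.5 CPM in Cap-B+2D, and the muscle markers have been given beside Fgfr4. The part of these shifts in the rise of the Sprouty genes, Dusp6, Fgfr1 and Fgfr4 was not tested.

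Other genes of the pathway moved in both directions in culture. Of the other feedback and target genes, 6 of 14 were called higher and 3 lower in the lingual part, and 6 higher and 2 lower in the buccal part. Fosl1 was highest by fold on both sides (0.169 to 1.84 CPM, log2 fold change 3.36, and 0.111 to 1.15 CPM, 3.31), though it started near the floor, and Dusp9, a phosphatase of ERK like Dusp6, fell by 1.42 and by 0.81 on the log2 scale. Of the relay genes, 1 was called higher and 3 lower in the lingual part (Shc1 at 0.71 and Gab1 and Frs3 at -0.62 among them), and 1 higher and 2 lower in the buccal part (Map2k1 at 0.6 and Cbl at -0.72). Receptor partners were called higher in 5 of 12 and lower in none in the lingual part, led by Fgfbp1 (0.964 to 1.99 CPM, 1.01), and higher in 4 and lower in 1 of 13 in the buccal part, where Klb rose by 1.04 at under 1 CPM and Fgfbp1 fell by 2.73 to 0.115 CPM. The called ligand genes were 6 higher and 3 lower of 17, and 9 higher and 1 lower of 19. Fgf20 was at 3.71 CPM in Cap-L and, after culture, at 0.0829 CPM, about the floor. Fgf21 was under the floor in Cap-L and at 1.25 CPM in Cap-L+2D, while Fgf3 fell from 1.59 to 0.329 CPM in the buccal part (-2.23). Fgf6 was at 0.056 CPM in Cap-B, under the floor, and at 1.29 CPM in Cap-B+2D. Atf3 led the immediate early genes on both sides, at 3.26 and 2.22.

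**Figure D4:**
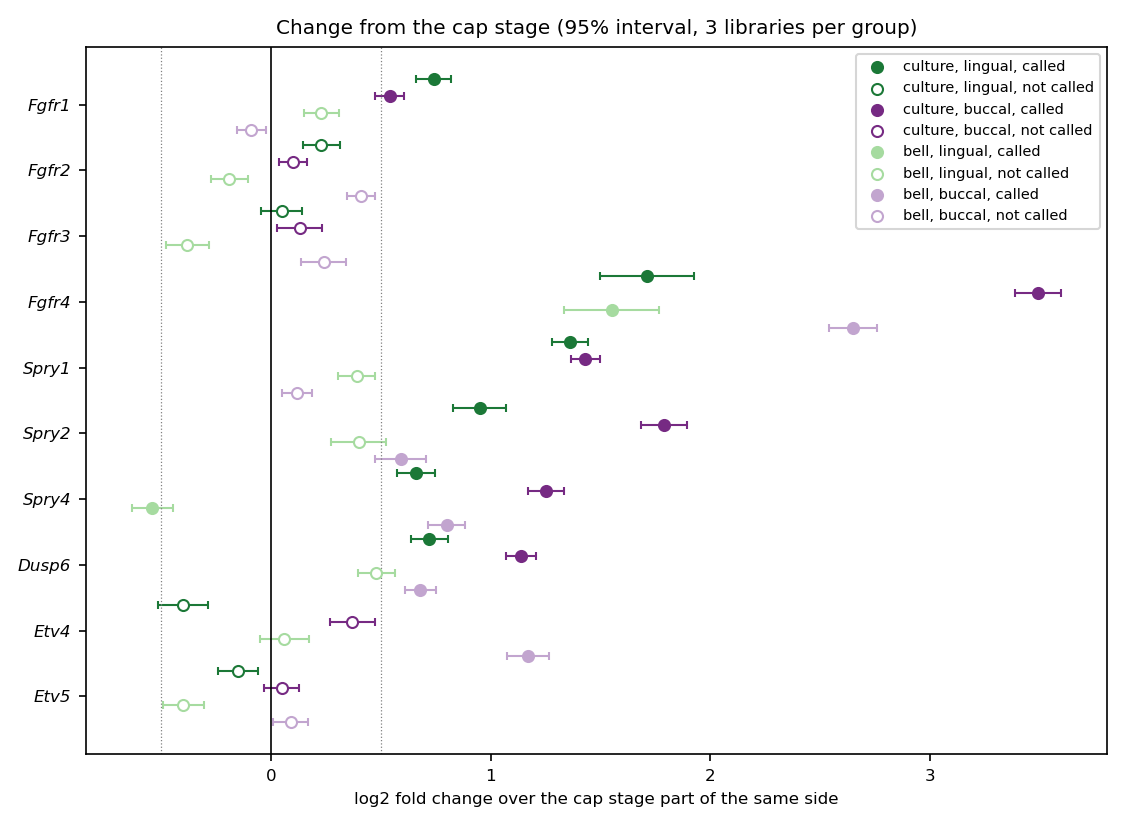
Log2 fold change over the cap stage part of the same side (horizontal axis) for the 10 genes after 2 days of culture and at the bell stage, with approximate 95% intervals from 3 libraries per group. Filled points were called, and dotted lines mark 0.5 in either direction. The Sprouty genes and Dusp6 lie to the right after culture on both sides, Etv4 lies at -0.4 in the lingual and 0.37 in the buccal part after culture, and it reaches 1.17 in Bell-B.

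The undivided mesenchyme gave a noisier comparison of the stages. Of the 10 genes, 3 were called between Cap-W and Bell-W, 2 upward and 1 downward, where 14.5% of 20940 genes were called, 10.3% upward and 4.21% downward. Fgfr2 rose from 66.3, 87.3 and 90.4 CPM to 180, 245 and 224 CPM (log2 fold change 1.39, SE 0.173, adjusted p = 0.00205). Spry4 fell from 101, 109 and 113 CPM to 59.8, 65.4 and 74.8 CPM (-0.71, SE 0.12, adjusted p = 0.00702). Both genes stayed called with any 1 library left out. Markers of other cells rose between these groups too, with all 6 endothelial markers (187 to 198 CPM in Cap-W and 358 to 462 CPM in Bell-W), all 5 macrophage markers (15.4 to 20.7 and 92.1 to 105 CPM) and 2 of 4 osteoblast markers tested called higher, while 2 of 4 cartilage markers were called lower. Their part in the changes of the 10 genes was not tested. The stages were apart in 6 of the 10 genes, beside 36.7% of all genes tested.

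Etv4 rose from 41.8, 45.4 and 46 CPM in Cap-W to 60.2, 70.6 and 110 CPM in Bell-W (0.84, SE 0.219, adjusted p = 0.0377). The highest value is that of Bell-W replicate 3, the library with 1840 CPM of epithelial markers against 453 and 536 CPM in the other Bell-W libraries. Without that library Etv4 was still called, at 0.541 (adjusted p = 0.0273). The call was lost without Cap-W replicate 1, 2 or 3 (adjusted p = 0.0884, 0.0942 and 0.104) or Bell-W replicate 2 (adjusted p = 0.0735). Fgfr3, at 15.4, 42.5 and 26.7 CPM in Cap-W and 58.8, 60.7 and 56.1 CPM in Bell-W, was not called (1.03, SE 0.323, adjusted p = 0.0715), but was without Cap-W replicate 1 (0.726, adjusted p = 0.0494) or Cap-W replicate 2 (1.458, adjusted p = 0.0145). Fgfr3 also passed with DESeq2 (adjusted p = 0.00959), with no filter on low counts (0.012), with all 24 libraries in 1 fit (8.61e-05) and with a replicate block (1.144, adjusted p = 0.0299).

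Dusp6 was at 98.8 ± 11.7 CPM in Cap-W and 139 ± 16.4 CPM in Bell-W (0.48, SE 0.128), within the limit, and beyond it without Cap-W replicate 1 (0.563, adjusted p = 0.029). Spry2 was at 13, 15.1 and 30.1 CPM in Bell-W, with the highest value again in replicate 3, and at 30.2, 20.4 and 23.5 CPM in Cap-W. It was called lower at the bell stage without that library (-0.827, adjusted p = 0.0313). Without both Cap-W replicate 1 and Bell-W replicate 3, an alternative chosen after the data had been seen, 5 genes were called: Fgfr2, Fgfr3 and Etv4 higher, and Spry2 and Spry4 lower. The number of all genes called rose from 3037 to 4443 in that fit. Fgfr4 was at 2.35 ± 0.691 CPM in Cap-W and 2.4 ± 0.674 CPM in Bell-W (0.01, SE 0.351), where the muscle markers summed to 12.5 to 16.8 and 7.11 to 14.1 CPM.

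For most of the 10 genes, the undivided libraries lay wholly above or below the lingual and buccal libraries of their stage. The ranges overlapped for Fgfr3 and Spry1 at the cap stage and for Fgfr1, Fgfr2 and Spry2 at the bell stage. At the cap stage, 5 genes (Spry2, Spry4, Dusp6, Etv4 and Etv5) were higher in all Cap-W libraries than in any Cap-L or Cap-B library, and 3 (Fgfr1, Fgfr2 and Fgfr4) were lower, where 12.1% and 15.9% of 23402 genes were. At the bell stage, 5 genes (Fgfr3, Spry4, Dusp6, Etv4 and Etv5) were above and 2 (Fgfr4 and Spry1) below all libraries of the parts, beside 9.63% and 9.12% of all genes. Spry4, for example, was at 108 ± 6.13 CPM in Cap-W and at 68.4 ± 3.06 and 33.3 ± 0.823 CPM in Cap-L and Cap-B. The immediate early genes summed to 1200 to 1530 CPM in Cap-W against 3900 to 4050 and 3910 to 4030 CPM in the cap parts. At the bell stage they summed to 5510 to 5680 CPM in Bell-L and 5340 to 5440 CPM in Bell-B. In Bell-W these genes summed to 3040, 3910 and 5610 CPM. Only replicate 3, the library with high epithelial markers, reached the range of the parts. The relation of the immediate early genes to the levels of the 10 genes was not tested. Nor was that of the larger spread of the undivided libraries or of the Rn18s-rs5 shares given above.

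In the wider pathway, Fgf3 was at 0.222, 0.954 and 0.626 CPM in Cap-W and at 25.4, 33.1 and 36 CPM in Bell-W (5.59), and Fgf8 was at 2.17, 1.18 and 2.15 CPM in Cap-W and about or under the floor in Bell-W. Ligand genes were called higher in 3 and lower in 2 of 16 tested. Dusp5 (1.59) was called higher and Dusp7 (-0.74) and 1 other lower among 13 feedback and target genes, Sos1 (-0.6) was the 1 relay gene called, and Flrt2 (-0.88) led the 2 receptor partners called lower. Of the immediate early genes, 9 of 10 were called higher at the bell stage, led by Zfp36 (3.81).

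Over the 8 group means, pairs of the 10 genes shared their pattern to very different degrees. Pearson's r of mean log2 CPM was 0.954 for Fgfr2 and Fgfr3, 0.927 for Fgfr1 and Spry1 and 0.886 for Spry1 and Spry2, but 0.25 for Spry1 and Spry4 and 0.541 for Etv4 and Etv5. With the summed skeletal muscle markers, r was 0.972 for Fgfr4, 0.852 for Spry1 and 0.782 for Fgfr1, and Fgfr2 stood at 0.85 with the osteoblast markers, Fgfr1 at 0.872 with the immediate early genes and Spry1 at -0.908 with the erythroid markers. These values describe 8 points that share libraries and scaling and are not independent of the group differences above.

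By the same measure, among 12039 genes with an average log2 CPM of at least 2, the gene most like Fgfr1 was Slc43a2 (0.987), the gene most like Fgfr2 was Mmp9 (0.968) and the gene most like Fgfr3 was Dgkz (0.978). Fgfr4 was most like Mylpf (0.981), which encodes a myosin light chain of fast skeletal muscle. For the inhibitors these were Fbxo10 for Spry1 (0.993), Hipk3 for Spry2 (0.985), Asb3 for Spry4 (0.965) and Stx3 for Dusp6 (0.981), and for the ETS factors Vdac3 for Etv4 (0.972) and Cct3 for Etv5 (0.987).

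**Figure D5:**
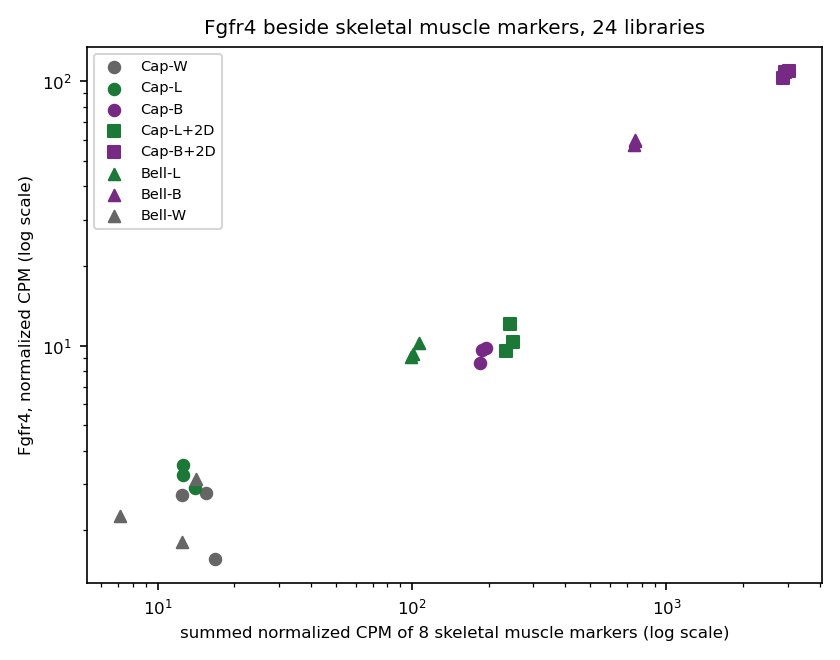
Fgfr4 (normalized CPM, vertical log axis) against the summed normalized CPM of 8 skeletal muscle markers (horizontal log axis) in the 24 libraries, with lingual groups in green, buccal in purple and undivided in grey. Cap-B+2D and Bell-B stand at the upper right, with 107 and 58.9 CPM of Fgfr4 as means, and Cap-L and the undivided groups at the lower left.

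The ratio of Fgfr4 to the muscle markers was not the same in all groups. Fgfr4 came to 3.61% to 3.68% of the summed markers in Cap-B+2D, 4.66% to 5.1% in Cap-B and 4.07% to 4.97% in Cap-L+2D. It came to 7.68% to 7.95% in Bell-B, 9.14% to 9.66% in Bell-L and 20.7% to 28% in Cap-L, and in the undivided groups, where both were low as in Cap-L, to 9.27% to 21.8% (Cap-W) and 14.4% to 31.8% (Bell-W).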

How the data were processed

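RNA-seq libraries were available for 24 samples in 8 groups of 3, assigned by their labels. The authors deposited raw counts of read pairs per gene, made per the file headers with featureCounts of Subread 2.0.0 on exons of Ensembl release 107 (GRCm39), without strand. The deposited exon length, in bases, was used for RPKM. The labels and the methods name different library kits and aligners (the submitters' notes list Trimmomatic 0.39 and Bowtie 1.2.3), so the aligner is uncertain. The share of multiply mapped reads is not given in the sources used here.

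Symbols came from an Ensembl 116 annotation by identifier (56017 of 56748 genes). Each comparison was fitted in R 4.3.3 with edgeR 4.0.16 (TMM, filterByExpr, quasi-likelihood test) on all genes, with Benjamini-Hochberg adjustment over all genes. Called genes were those passing 0.05 (adjusted p) and 0.5 (log2 fold change, either direction). The standard error is the fold change over the root of F. Comparisons of 1 side used 9 libraries, interactions 12. Depth was 20581720 to 39266497 counts, and the floor of 3 counts takes in counting error alone, as duplicates of PCR had not been marked.

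Alternatives were RLE normalization, TMM without the 100 most abundant genes, DESeq2 1.42.0, other filters, a joint fit of all libraries, a block for the replicate number, other thresholds and each library left out. The scripts were tested on simulated counts. The genes and lists were chosen with earlier results of these data known. In each list, the called gene with the largest absolute log2 fold change in each direction was named; further list members were named after their values were seen. Spry3 has no row in the table. Promoters of Fgfr1, Spry4 and Etv4 were not used.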

Additional observations from a re-analysis of the deposited data

Results flagged for a closer look

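The side difference changed between cap and bell, by the interaction test of edgeR (log2 scale, buccal over lingual, bell minus cap), in Fgfr1 (-0.33), Fgfr2 (0.59), Fgfr3 (0.6), Fgfr4 (1.08), Spry1 (-0.28), Spry4 (1.33), Dusp6 (0.2), Etv4 (1.1) and Etv5 (0.48). It changed between cap and culture in Fgfr1 (-0.21), Fgfr4 (1.78), Spry2 (0.83), Spry4 (0.58), Dusp6 (0.41), Etv4 (0.76) and Etv5 (0.18). Between cap and bell the sign of the side difference itself turned in Spry4 (-1.01 to 0.32), Etv4 (-0.87 to 0.23) and Etv5 (-0.35 to 0.14). Between cap and culture it turned in Dusp6 (-0.24 to 0.17). The adjusted p was under 0.05 on either side of each turn in the edgeR fit of each comparison. Over the alternative fits, the adjusted p of the later difference rose as high as 0.317 for Etv4, 0.417 for Etv5 and 0.058 for Dusp6. For Spry4 it was at most 0.000914.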

How the results depend on the processing

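RLE normalization, TMM without the 100 most abundant genes, DESeq2, at least 10 counts in every library and an adjusted p under 0.01 left every count of called genes within 1.5 times its value. With no filter on low counts, 5 genes were called between Cap-W and Bell-W, and 5 without Cap-W replicate 1 and Bell-W replicate 3, against 3. Over all genes, 3246 and 4443 were called in these fits, against 3037. With all 24 libraries in 1 fit, the interaction of side with stage held in 5 genes, where 2581 of 23402 genes were called. With no limit on the fold, 9 genes were called between the sides at the cap stage (42.3% of all genes tested), 7 at the bell stage (37.0%) and 9 after culture (54.6%), and 9 between the stages in the lingual (50.1%) and the buccal part (48.0%). Leaving out 1 library turned the sign of 3 uncalled values, Fgfr1 between the sides at the bell stage (-0.039 to 0.003), and Fgfr4 (-0.241 to 0.206) and Spry1 (-0.084 to 0.209) between Cap-W and Bell-W; Fgfr4 was at -0.443 without Cap-W replicate 1 and Bell-W replicate 3. The number of called genes over these fits ran from 2 to 4 in the undivided mesenchyme and from 6 to 7 in the interaction of side with culture. Of the 1550 alternative values of single genes, 1510 kept their direction and stayed called or uncalled. Where the limit on the fold applied, a value that stayed within it with its sign counted as kept whatever its adjusted p. The fits also share libraries, so these values are not independent. The causes were not tested.

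The deviations of libraries with the same replicate number were not alike throughout, so the numbers were not taken as pairs. Their correlation ran from -0.392 (Cap-L and Bell-L, replicate 1) to 0.481 (Cap-L and Cap-B+2D, replicate 1). The lowest value of each pair of groups was between -0.392 and 0.085. It was positive for Cap-W and Bell-W, for Cap-B and Bell-B, and for Cap-B and Cap-L+2D. With the replicate number as a block, 5, 1 and 3 genes were called between the sides at cap, bell and after culture, 4 between Cap-W and Bell-W, 2 and 5 between stages in the lingual and buccal part, 6 and 6 with culture, and 9 and 8 in the interactions. Over all genes, from the same numbers tested as above, 3562, 2759 and 5273 were called between the sides and 2791 between Cap-W and Bell-W. The counts over all genes were 4228 and 4109 between stages, 7549 and 7608 with culture, and 6879 and 7866 in the interactions. The calls that the block added were Fgfr3 between Cap-W and Bell-W (adjusted p = 0.0299) and Fgfr2 in the interaction of side with culture (adjusted p = 0.0473).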
